A study of Mus musculus with 8 samples.

Results

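The genes of the CCAAT/enhancer-binding protein (C/EBP) family Cebpa, Cebpb, Cebpd, Cebpe and Cebpg were examined for PU.1 binding sites in AML246, an acute myeloid leukaemia line from mouse. A site belonged to a gene when a called peak summit lay in the gene body or within 50 kb on either side (mm10). These windows covered 481097 bases and held 283 of the 365360 summits of the series, around 5 of 21887 protein-coding genes. The members were chosen by name and not by their binding, though with earlier results of these data known.

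PU.1 was profiled by chromatin immunoprecipitation and sequencing (ChIP-seq) along a 24 day course, in cells kept in IL-3 medium. Doxycycline (Dox, 0.1 ug/mL) was added at day 0 and taken away at day 12. The 4 libraries titled restoration came from viable cells, untreated at day 0 or exposed to Dox for 4, 8 or 12 days. The 3 libraries titled knockdown were Day 12- 4, Day 12- 8 and Day 12- 12, and their labels for treatment differed from the titles. Day 12- 4 was labelled as Cd11b-high viable cells after 12 days of Dox, Day 12- 8 as viable cells 4 days off Dox, and Day 12- 12 as viable cells 8 days off Dox. Each library is called by its title here. A sample labelled 12 days off Dox was not analysed here. The construct that answers to Dox is not described in the sources used here, and summit lists hold no expression values with which to check the cell type. Each group had 1 library, so differences had no replicate error to be judged by and no test was run. Sequencing depth was unknown, and the lists differed in length from 8043 summits at day 0 to 148415 in Day 12- 12. A score is the authors' −log10 q-value of a peak within its own list, and it does not measure a change in binding between libraries. A missing call is not absence of binding.

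C/EBP proteins are basic leucine zipper transcription factors that bind DNA as dimers. C/EBPα directs progenitors into the granulocyte and monocyte lineages, C/EBPβ acts in emergency granulopoiesis and in macrophages, and C/EBPε is needed for late granulocyte maturation. C/EBPδ responds to inflammatory signals, and C/EBPγ, which lacks an activation domain, dimerises with the others and limits them. PU.1, an ETS-family factor that binds a GGAA core, works together with C/EBP factors at many myeloid enhancers. A distal enhancer about 37 kb downstream of mouse Cebpa is known as a myeloid control element of that gene.

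The region where that enhancer is expected held the most recurrent site with no call at day 0. Within 33 to 41 kb of the lower coordinate of Cebpa (chromosome 7, 35119293 to 35121928), where the gene starts, 1 site was called in every library other than day 0. Its summits lay between 35156612 and 35156691, which is 37319 to 37398 bases from the start of Cebpa and 34.7 kb beyond its end, inside the lncRNA gene Gm35889. The 6 summits fell within 79 bases of each other. At day 0 the closest summit lay 28.7 kb away.

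The scores of this site were 146, 120.3 and 516 on days 4, 8 and 12 of Dox. It scored 28.4 in Day 12- 4, 10.98 in Day 12- 8 and 223 in Day 12- 12. It was the highest-scoring C/EBP-gene summit in the day 12, Day 12- 4 and Day 12- 12 lists. By rank within the full lists it stood at 2641 of 57424 on day 4, 1930 of 33962 on day 8 and 426 of 86271 on day 12. In the knockdown libraries it ranked 1678 of 9868 in Day 12- 4, 5548 of 21377 in Day 12- 8 and 344 of 148415 in Day 12- 12. Thus it stood within the top 0.494% of the day 12 list and the top 0.232% of the Day 12- 12 list, but at 26.0% in Day 12- 8. When lists were cut to 8043 summits by score, the length of the day 0 list, the site stayed in all 6. The region held 4 other merged sites, each in 1 library and scoring from 3.40 to 9.88.

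**Figure D1:**
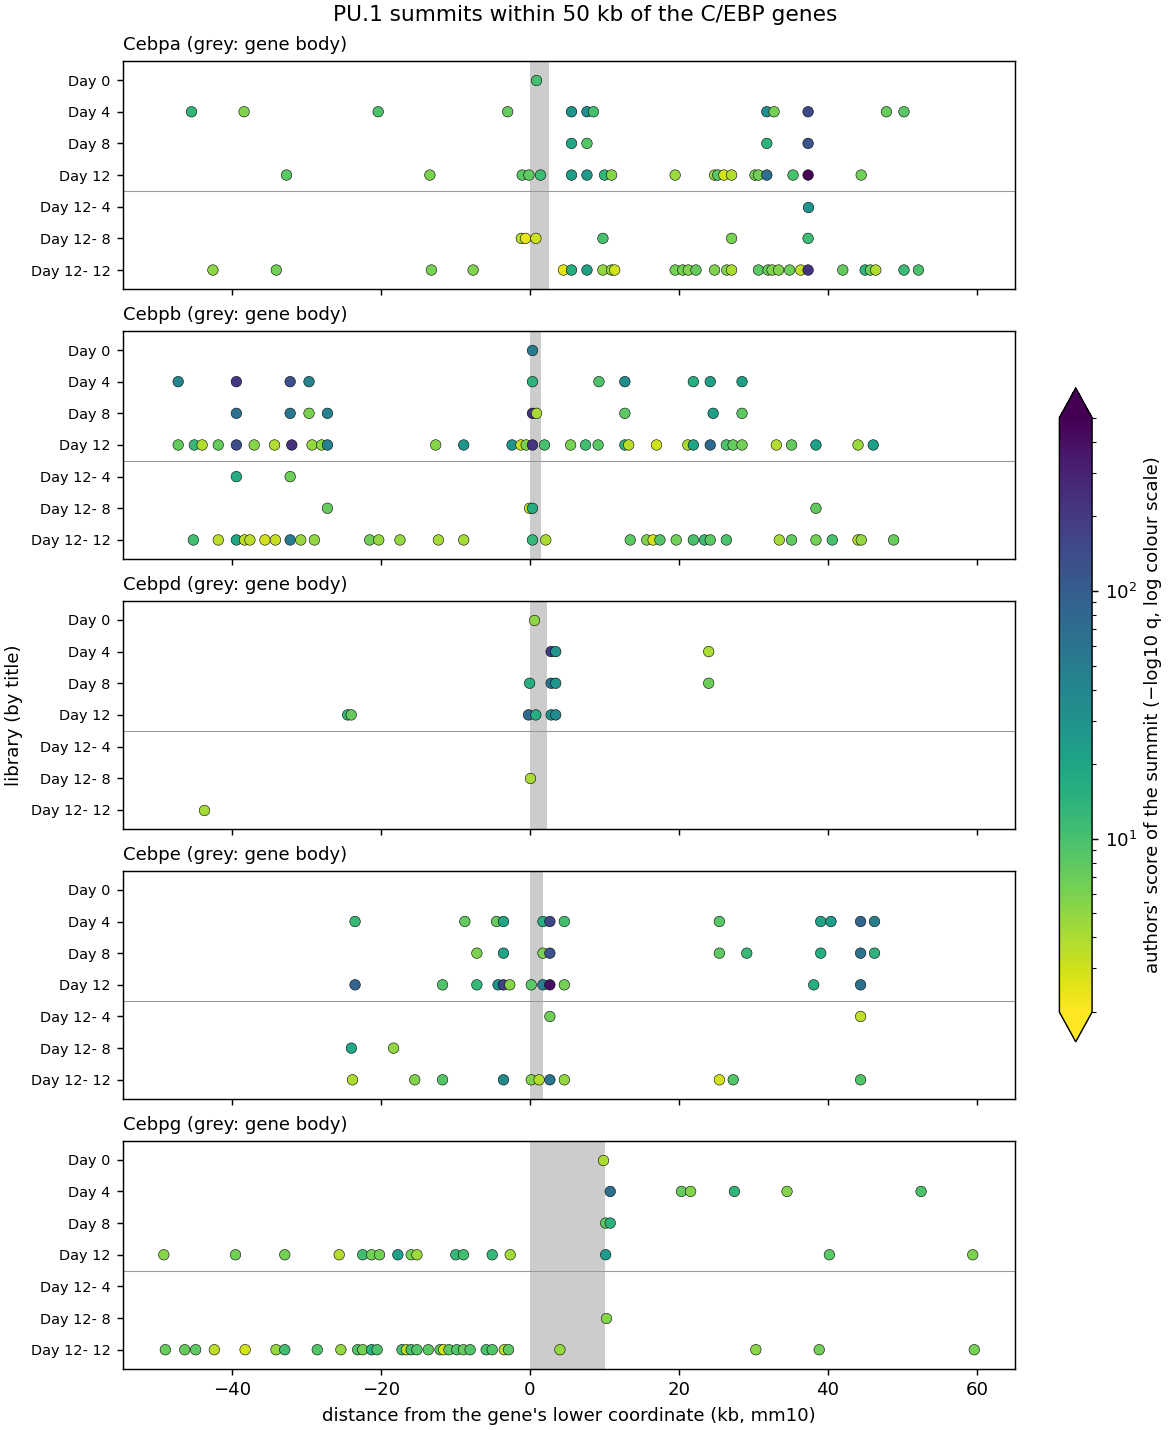
Called PU.1 summits around each C/EBP gene, with the distance from the gene's lower coordinate in kb across and the 7 libraries down, restoration libraries above the line and knockdown libraries under it. Each point is a merged site called in that library, coloured by the authors' score on a log scale, and the grey band is the gene body. The column of points near 37 kb at Cebpa is missing at day 0 alone, while Cebpd has 1 summit in each of 2 knockdown libraries and none in Day 12- 4.

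Elsewhere around Cebpa, a pair of sites just past the gene end was called in the same 4 libraries, at days 4, 8 and 12 and in Day 12- 12. The nearer one (35124802 to 35124992, 2.87 kb past the end) scored 28.2, 19.5 and 23.5 at days 4, 8 and 12 and 16.4 in Day 12- 12. The other (35126904 to 35127035, 4.98 kb past the end) scored 32.5, 8.78 and 25.2 at those times and 21.1 in Day 12- 12. Their ranks were 21.1 to 25.9% of the list at days 4 and 12, and 40.1 and 69.1% at day 8. In Day 12- 12 these sites stood at 7.13 and 4.79%. A further site at 35151081 to 35151138 was called at days 4, 8 and 12 and in no knockdown library, with scores of 32.5, 14.0 and 70.2. A Day 12- 12 summit at 35151277 (score 7.21) lay just beyond the 100 bp linking distance. Inside Cebpa the sole day 0 summit of the window (35120095) scored 10.3, and Day 12- 8 had a summit 42 bases from it with a score of 3.05.

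Cebpa, Cebpb and Cebpg have promoter sequences in the RefSeq table for GRCm38.p6, and each had at least 1 summit in the 250 bases before its start. They are shown because the summits in them can be placed relative to the gene start. The windows are chr7:35119043-35119292 (plus strand) for Cebpa, chr2:167688665-167688914 (plus strand) for Cebpb and chr7:35056567-35056816 (minus strand) for Cebpg. Each is printed 5′ to 3′ with the base next to the gene start last, and capitals mark GGAA or its complement TTCC.
Cebpa: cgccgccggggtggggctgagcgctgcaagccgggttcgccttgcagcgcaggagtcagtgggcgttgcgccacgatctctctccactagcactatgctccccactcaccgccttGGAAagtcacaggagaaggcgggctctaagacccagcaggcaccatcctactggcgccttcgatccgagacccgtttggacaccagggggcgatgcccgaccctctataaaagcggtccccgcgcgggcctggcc
Cebpb: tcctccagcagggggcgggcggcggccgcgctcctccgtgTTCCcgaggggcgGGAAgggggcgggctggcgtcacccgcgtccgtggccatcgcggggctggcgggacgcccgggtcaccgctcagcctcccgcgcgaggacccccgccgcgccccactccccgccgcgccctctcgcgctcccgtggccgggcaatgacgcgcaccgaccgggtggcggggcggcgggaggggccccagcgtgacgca
Cebpg: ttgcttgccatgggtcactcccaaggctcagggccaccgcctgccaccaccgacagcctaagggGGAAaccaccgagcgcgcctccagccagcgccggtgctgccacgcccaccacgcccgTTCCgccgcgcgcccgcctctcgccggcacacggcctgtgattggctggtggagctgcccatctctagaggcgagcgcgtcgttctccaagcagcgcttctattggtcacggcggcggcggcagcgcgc

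In the Cebpa window the day 12 summit lay 111 bases before the start and scored 7.64. In the Cebpb window the Day 12- 8 summit lay 25 bases before the start and scored 3.09. The Cebpg window held the day 8 summit, 46 bases before the start with a score of 7.78, and the day 12 summit, 93 bases before it with a score of 24.8. On both strands GGAA occurred 1 time in the Cebpa window and 2 times in each of the others. Over 21263 promoters of protein-coding genes the median was 3, and 93.2% held at least 1. The PU.1-type motif GAGGAAGT, which contains a GGAA, and the C/EBP-type motif TTGCNNAA, searched on both strands, were in none of the 3, against 2.23% and 9.09% of all promoters. The bases were rich in G and C, at 66.4% for Cebpa, 81.6% for Cebpb and 70.8% for Cebpg.

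Cebpb (chromosome 2, 167688915 to 167690432) carried the C/EBP site with the highest score at day 0 and had the most summits at day 12. The site inside the gene (167689247 to 167689309) was called in 6 libraries, all but Day 12- 4. Its scores on days 0, 4, 8 and 12 were 51.5, 14.3, 211 and 219. It scored 16.7 in Day 12- 8 and 12.6 in Day 12- 12. In the day 0 list it ranked 427 of 8043, and its ranks at days 4, 8 and 12 were 25251, 598 and 2955. These ranks come from lists of unequal length and do not show a change between times.

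Far upstream of Cebpb, inside Tmem189, lay sites that stood within the top 2.67 and 5.49% of the day 4 list. The site at 167649455 to 167649617, 39.3 kb before the gene, had scores of 205, 64.2 and 135 on days 4, 8 and 12, with no day 0 call. It scored 16.7 in Day 12- 4 and 18.8 in Day 12- 12 and had no call in Day 12- 8. At 167656743 to 167656768, 32.1 kb before the gene, the scores were 129 at day 4 and 56.6 at day 8. There Day 12- 4 scored 6.72 and Day 12- 12 scored 51.7. The day 12 summit nearby (167656972, score 233) lay 204 bp further on and so was not linked at 100 bp. Of the 63 merged sites around Cebpb, 18 lay inside Tmem189, 21 were called at day 12 alone and 22 in Day 12- 12 alone. Over the whole series these classes hold 13.7 and 41.5% of merged sites.

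Cebpe (chromosome 14, 54710363 to 54712174) was the sole C/EBP gene without a day 0 summit. Having a day 12 summit in the window and none at day 0 was the case for 33.3% of all protein-coding genes. Its leading site lay 0.859 kb above the higher coordinate (54713033 to 54713088) and had scores of 157, 131 and 408 on days 4, 8 and 12. It scored 6.72 in Day 12- 4 and 60.2 in Day 12- 12, with no call in Day 12- 8. The day 12 summit ranked 923 of 86271, second among C/EBP-gene summits of that list to the Cebpa distal site.

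On the other side of Cebpe, 3499 bases below the lower coordinate, a site at 54706802 to 54706864 had scores of 19.0, 19.8 and 169 on days 4, 8 and 12. It scored 36.9 in Day 12- 12 and had no call in the other knockdown libraries. Its rank was 34.97 and 38.9% of the list at days 4 and 8, against 4.65% at day 12 and 2.57% in Day 12- 12. Another recurrent site (54754706 to 54754831), inside the amino acid transporter gene Slc7a8, had a different order, with scores of 87.0, 64.2 and 62.1 on days 4, 8 and 12. In the knockdown libraries it scored 3.47 in Day 12- 4 and 8.89 in Day 12- 12. Of 25 merged sites around Cebpe, 8 lay inside Slc7a8. In Day 12- 8 the window held 2 summits, at 54686419 (score 18.1) and 54692082 (score 4.96), and neither was linked to a summit of another library. Near the first, a Day 12- 12 summit at 54686570 (score 3.94) lay just beyond the 100 bp linking distance. A site at 54686902 to 54686922, further on, was called at day 4 (12.0) and day 12 (87.1).

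**Figure D2:**
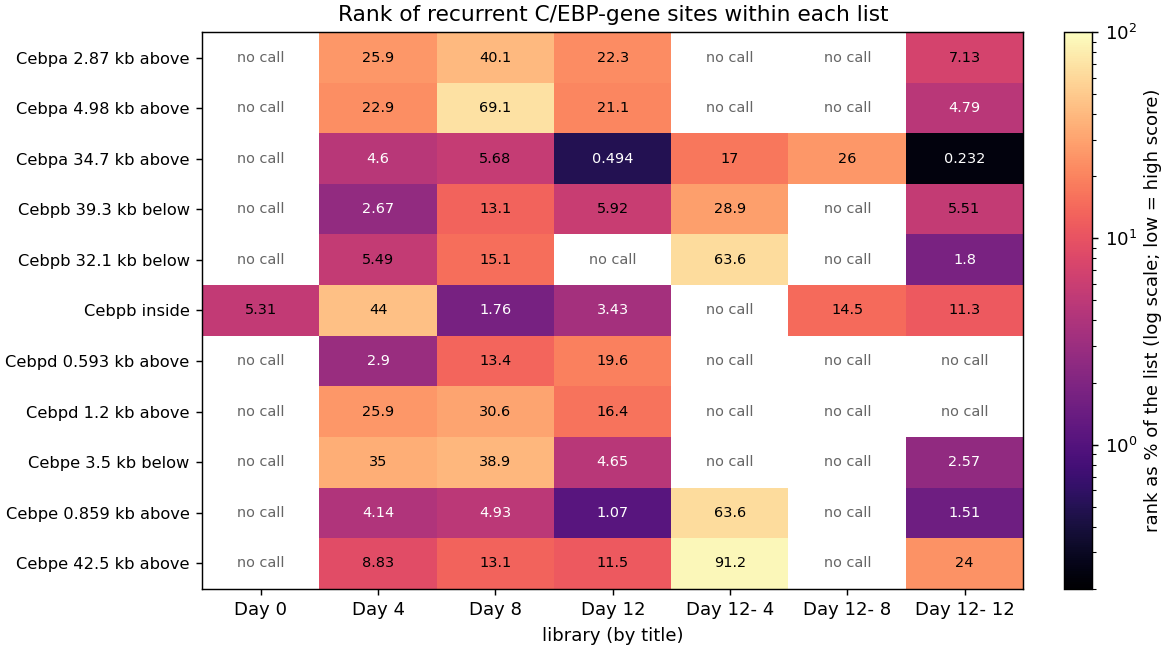
Rank of recurrent sites within each list, as a percentage of the list length, for the 9 merged sites called in 4 or more libraries and the 2 Cebpd sites called in 3. Distances are from the nearest edge of the gene, above or below it on the chromosome, and dark cells are high-scoring positions. The site 34.7 kb above Cebpa stands at 0.494% at day 12 and 0.232% in Day 12- 12, and the Cebpd sites have no call in any knockdown library. Sites of the other genes called in 3 libraries are not drawn, and some at Cebpa, Cebpb and Cebpe also have no knockdown call.

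Cebpd (chromosome 16, 15887286 to 15889545) had few summits, and those with the highest scores lay at its ends. A site 0.593 kb above the gene (15890138 to 15890179), inside Spidr, had scores of 196, 63.3 and 28.7 on days 4, 8 and 12. Its rank was 2.90, 13.4 and 19.6% of the list on those days. The neighbouring site 1.20 kb above the gene (15890747 to 15890784) scored 28.1, 27.2 and 37.4 at those times. Neither was called at day 0 or in any knockdown library. At the lower end the day 12 summit at 15887120 scored 78.0, and 108 bp further on a site at 15887228 to 15887298 was called at day 8 (15.3) and in Day 12- 8 (4.15). The day 0 summit inside the gene (15887887) scored 5.07.

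Cebpg (chromosome 7, 35046422 to 35056566) lies 62.7 kb from Cebpa, and their windows overlap, so 3 day 4, 2 day 12 and 3 Day 12- 12 summits counted for both genes. Its scores were 67.0 or lower in every library. The site at the gene start (35056561 to 35056659) was called at day 8, day 12 and in Day 12- 8, with scores of 7.78, 24.8 and 5.51. A site 0.650 kb before the start (35057216 to 35057230) scored 67.0 at day 4 and 14.3 at day 8. Of 49 merged sites, 35 lay inside the neighbouring peptidase gene Pepd, and 25 were called in Day 12- 12 alone, a class that holds 41.5% of all merged sites of the series. No site around Cebpg or Cebpd was called in 4 or more libraries, while Cebpa, Cebpb and Cebpe had 3 each.

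Counted per gene, Cebpa, Cebpb and Cebpg had their highest numbers of summits at day 12 and in Day 12- 12, while Cebpe had as many at day 4 as at day 12 and Cebpd had few in every library. At day 0 Cebpa, Cebpb, Cebpd and Cebpg had 1 summit each and Cebpe 0. Cebpa had 12, 4 and 20 summits at days 4, 8 and 12, and 1, 6 and 30 in Day 12- 4, Day 12- 8 and Day 12- 12. Cebpb had 10, 9 and 35 at the restoration times and 2, 4 and 33 in the knockdown libraries. Cebpe had 12, 9 and 12 and then 2, 2 and 11. At day 8, 1 gene, Cebpd, had more summits than at day 4, as did 7.76% of all genes. Cebpa, Cebpb and Cebpe were at or above the median of all protein-coding genes in each treated library, which was 5, 3 and 6 at days 4, 8 and 12 and 1, 2 and 9 in the knockdown libraries. Cebpd had 3, 4 and 6 and then 0, 1 and 1, and Cebpg had 6, 2 and 17 and then 0, 1 and 32.

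A site was present for 4 of 5 C/EBP genes at day 0, against 55.1% of all protein-coding genes, and for 5 of 5 at days 4, 8 and 12, against 84.4, 77.6 and 87.4%. It was present for 3 of 5 in Day 12- 4, against 55.1%, and for 5 of 5 in Day 12- 8 and Day 12- 12, against 76.2 and 90.5%. With so many genes called, these counts say little about the family. Within 10 kb a site was present for 4, 5, 5 and 5 of the C/EBP genes at days 0, 4, 8 and 12, against 36.8, 69.8, 61.7 and 77.1% of all genes. In the knockdown libraries, by title, the 10 kb counts were 1, 4 and 4, against 34.8, 61.8 and 78.9%. In lists cut to 8043 summits the 50 kb counts were 4, 5, 4 and 3 at days 0, 4, 8 and 12, against 55.1, 46.5, 49.1 and 52.4% of all genes. They were 3 in each cut knockdown list, against 51.1, 55.4 and 49.4% by title. All 5 had more summits at day 12 than at day 0, as did 84.8% of all genes. All 5 had fewer in Day 12- 4 and in Day 12- 8 than at day 12, against 85.9 and 80.2% of all genes. In Day 12- 12, Cebpb, Cebpd and Cebpe had fewer summits than at day 12, and 14.4% of all genes did, while Cebpa and Cebpg had more.

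**Figure D3:**
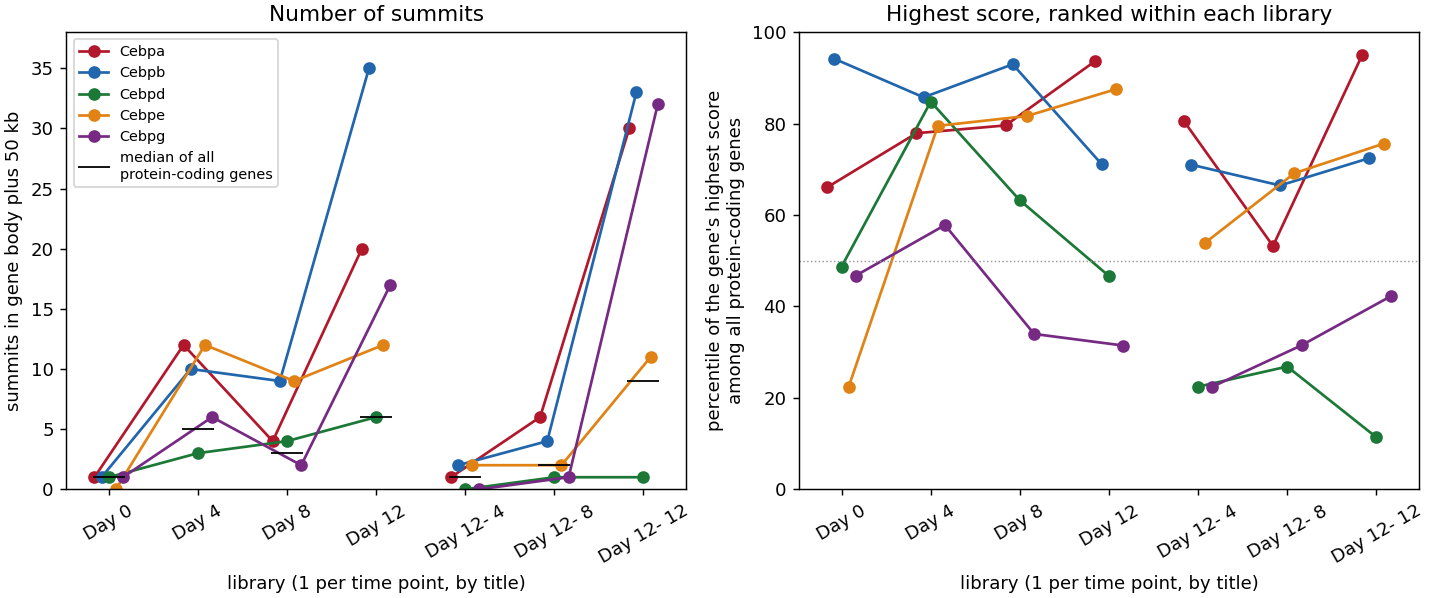
Left, number of summits in the gene body plus 50 kb for each C/EBP gene in each library, with the median of all protein-coding genes as black bars. Right, percentile of each gene's highest score among all protein-coding genes of the same library, with lines broken between the restoration and the knockdown libraries. A gene without a summit is drawn at the percentile that all such genes of its library share. Cebpa reaches 93.6 at day 12 and 94.99 in Day 12- 12, while Cebpg is at 57.8 or lower in every library.

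To set libraries side by side without comparing scores, each gene's highest score was placed among those of all protein-coding genes of the same library. A gene without a summit stood at 22.5 at day 0 and at 7.79, 11.2 and 6.29 at days 4, 8 and 12. This floor was 22.4, 11.9 and 4.76 in the knockdown libraries, by title, so low percentiles cannot be read across libraries. Cebpa lay at percentiles of 66.1, 77.9, 79.6 and 93.6 at days 0, 4, 8 and 12. It lay at 80.6, 53.2 and 94.99 in Day 12- 4, Day 12- 8 and Day 12- 12. Cebpb lay at 94.2, 85.8, 93.0 and 71.1 at days 0, 4, 8 and 12, and at 71.0, 66.5 and 72.4 in the knockdown libraries. Cebpe, with no site at day 0, lay at 79.5, 81.7 and 87.55 at days 4, 8 and 12, and at 53.9, 69.1 and 75.6 in the knockdown libraries. Cebpd lay at 48.7 at day 0 and at 84.8, 63.2 and 46.7 at days 4, 8 and 12, and at 22.4, 26.8 and 11.4 in the knockdown libraries. Cebpg was between 31.4 and 57.8 in the restoration libraries and at 22.4, 31.5 and 42.2 in the knockdown libraries. In Day 12- 4 neither Cebpd nor Cebpg had a site, so their 22.4 there is that floor. At day 12 the order of the genes by this measure was Cebpa, Cebpe, Cebpb, Cebpd and Cebpg. With 1 library a time, no spread was available to say which neighbours in that order differ. The median of the 5 highest scores at day 12 was 233, against 94.6 over all genes, and at day 0 it was 5.07, against 5.55.

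Pooled over the 5 genes, summit density was higher around the C/EBP genes than around protein-coding genes as a whole in each list. Gene length was not matched. Counted per gene, the C/EBP median equalled that of all genes at day 0 and in Day 12- 4 (1 each) and in Day 12- 8 (2 each). It was higher in the other lists. Not every member followed, as Cebpd had 0, 1 and 1 summits in the knockdown libraries, against gene medians of 1, 2 and 9. Cebpd at day 4 (3 against 5), Cebpe at day 0 (0 against 1) and Cebpg at day 8 (2 against 3) were also below. So was Cebpg in Day 12- 4 and Day 12- 8, with 0 and 1 against 1 and 2. The pooled values rest on few summits in the short lists, 4 at day 0 and 5 in Day 12- 4. At day 0 the windows held 0.831 summits per 100 kb, against 0.456 in the windows of all protein-coding genes, a ratio of 1.82. The ratio was 2.80 at day 4, 3.23 at day 8 and 3.92 at day 12. It was 1.95 in Day 12- 4, 2.52 in Day 12- 8 and 2.77 in Day 12- 12. As a share of each list, C/EBP summits made up 0.102% at day 12 (88 summits, exact Clopper-Pearson 95% interval 0.0818 to 0.126) and 0.0497% at day 0 (4 summits, 0.0136 to 0.127), and the intervals overlap. The intervals cover counting error only. In lists cut to 8043 summits the windows held 4 summits at day 0, then 7, 8 and 7 at days 4, 8 and 12, and 4, 4 and 5 in the knockdown libraries, with ratios between 1.82 and 3.72.

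**Figure D4:**
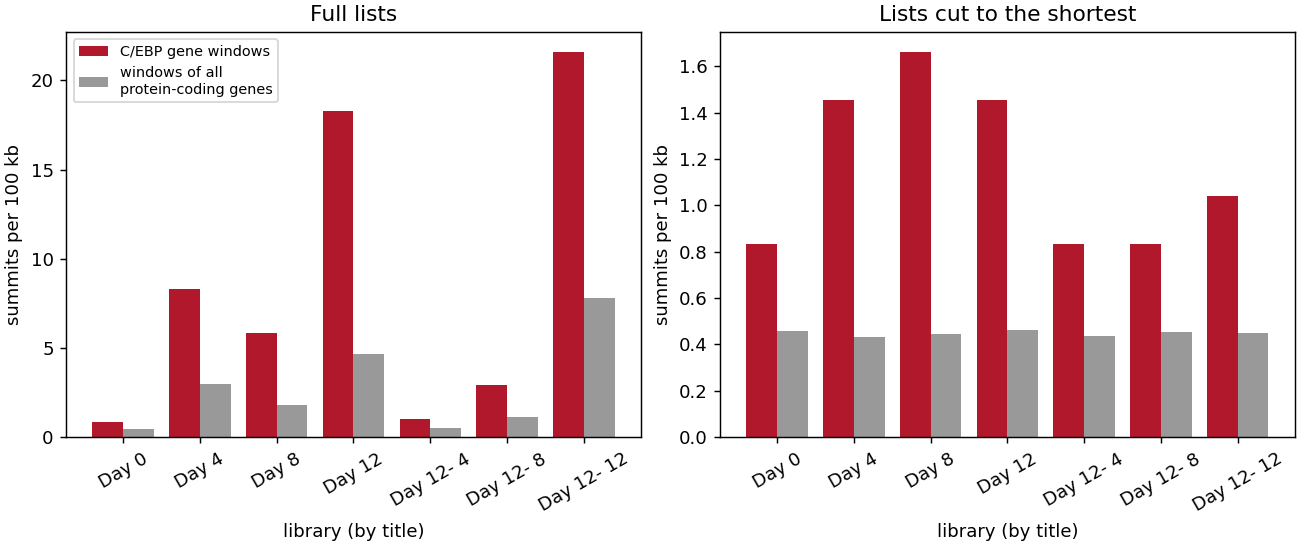
Summits per 100 kb in the C/EBP gene windows and in the windows of all protein-coding genes, for each library, with full lists on the left and lists cut to 8043 summits on the right. The C/EBP bar is the taller one in each pair, at ratios from 1.82 to 3.92 in the full lists, and the cut lists rest on 4 to 8 C/EBP summits each.

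The summits that remained at day 12 after this reduction were the Cebpa distal site, 3 summits at Cebpb and 3 at Cebpe. Those at Cebpb were the site inside the gene and both Tmem189 positions. Those at Cebpe were the sites 0.859 kb above and 3499 bases below the gene, and the summit at 54686902 (score 87.1). The last belongs to a site 23.4 kb below Cebpe, inside Acin1 and 1700123O20Rik. The Slc7a8 site, at rank 9897, was not among them. Cebpd and Cebpg had none, and the closest to entering was the Cebpd summit at 15887120, at rank 8387. At day 0 the 4 summits were all inside their genes.

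Merged over libraries, the C/EBP windows held 191 sites. Of these, 87 had a day 12 call and lacked one at day 0. A further 1, the site inside Cebpb, was called at both times, and 3 had a day 0 call without one at day 12. Of the 87 sites, 4 (4.598%) were called in Day 12- 4, against 7.19% of all such sites of the series, and 5 (5.75%) were called in Day 12- 8, against 6.67%. In Day 12- 12 the number was 30 (34.5%), against 47% of all such sites. In any of the knockdown libraries it was 32 (36.8%), against 50.5%. Without Day 12- 12 that number was 8. When summits were merged at 500 bp it was 54 of 79, so the share depends on the linking distance. The share over the whole series at 500 bp is not given here. The 4 sites called in Day 12- 4 were the Cebpa distal site, the Cebpb site 39.3 kb before the gene, and the Cebpe sites 0.859 and 42.5 kb above the gene. No C/EBP site was called in all 7 libraries, and 936 sites of the series were, which is 0.379% of all merged sites. Sites called in 4 or more libraries numbered 9, or 4.71% of the C/EBP sites, against 6.08% of all sites. Sites called at day 12 alone were 24.1% of the C/EBP sites and 13.7% of all sites. Those called in Day 12- 12 alone were 36.1% of the C/EBP sites and 41.5% of all sites, and those called at day 4 alone were 6.81 and 10.5%.

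A fixed list of 16 genes held partners and regulators of C/EBP proteins, and also Cebpz, which has a similar name. Of these, 10 were called at day 0, against 55.1% of all genes. At days 4, 8 and 12 the count was 15 of 16 each time, against 84.4, 77.6 and 87.4%. In the knockdown libraries 12, 14 and 15 of 16 had a summit, by title, against 55.1, 76.2 and 90.5%. The median number of summits was 8.50, 5 and 9 at days 4, 8 and 12, against 5, 3 and 6 over all genes. The highest day 12 scores were 790 at Batf, a basic leucine zipper partner, 558 at Runx1, a blood transcription factor, 471 at Cebpz, a CCAAT-binding protein gene of similar name, and 375 at Atf4, a stress-response factor. The Batf and Runx1 summits lay inside those genes, and the Cebpz summit lay 14 bases outside it, whereas the Atf4 summit was closer to Rps19bp1. Myb, Nfil3, Cop1 and Klf5 had highest day 12 scores of 71.9, 26.4, 24.7 and 13.3, below the median of 94.6 over all genes. Trib2, which encodes a pseudokinase that promotes C/EBPα degradation, had no summit within 50 kb in any library.

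Genes known as C/EBP targets in granulocytes and monocytes were called in 6 of 14 cases at day 0, against 55.1% of all genes. Elane and Prtn3, both called at day 0, have overlapping windows and the same highest score in every library, so their shared locus counts for both. All 14 had a summit at days 4, 8 and 12, against 84.4, 77.6 and 87.4%. Their median number of summits was 13, 6.50 and 16.5 at days 4, 8 and 12, against 5, 3 and 6 over all genes. In the knockdown libraries 12, 10 and 14 of 14 had a site, in title order, against 55.1, 76.2 and 90.5% of all genes. Their median number of summits there was 1.5, 1 and 23, against 1, 2 and 9 over all genes. The highest day 12 scores were 469 at Csf2ra, a GM-CSF receptor subunit, 340 at Mpo, myeloperoxidase, 316 at Csf3r, the G-CSF receptor, and 306 at Il6ra, an IL-6 receptor subunit. The Csf2ra summit lay inside the gene and the Il6ra summit 77 bases outside it. The Mpo and Csf3r summits lay 37.1 and 20.4 kb away, closer to Tspoap1 and Oscp1. Ngp, Lyz2, Mmp8 and S100a8 had highest day 12 scores of 85.3, 25.2, 8.51 and 8.43. These were below the median of 94.6 over all genes.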

How the data were processed

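PU.1 ChIP-seq libraries were made with a TruSeq kit for a NextSeq500, per the labels' protocols. The deposited files were lists of peak summits, with 1 position and a score per peak. MACS2 was the tool and mm10 the build, per the submitters' processing notes. The score was read as the authors' −log10 q-value, because the lowest score over the files was 1.30104 and −log10 of 0.05 is 1.30103. The aligner, the control, filters, depth and pooling are not given in the sources used here.

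Libraries were grouped by title. Genes came from the RefSeq table of GRCm38.p6, the assembly behind mm10, with strand from its promoter table for Cebpa, Cebpb and Cebpg. All 5 members and all 30 listed genes matched. Summits were joined across the 7 lists by single linkage (100 bp). For Cebpd and Cebpe, which had no strand in these tables, distances are from the lower or higher coordinate. Named sites were those called in 4 or more libraries, the 2 highest of each gene in any library and those in the Cebpa region. From each of 2 gene lists, the 4 genes with the highest day 12 score were named, with those below the all-gene median and those with none. A percentile counts genes below plus 50% of ties. The members and lists were chosen with earlier results of these data known. Alternatives were a 10 kb window, lists cut to the shortest, a score of at least 20, merging at 500 bp, grouping by treatment label, leaving out each knockdown library, a narrower Cebpa region and, added after seeing the data, the nearest gene. Python 3.11.15, numpy 2.4.6, pandas 2.3.3, scipy 1.17.1 and matplotlib 3.10.9 were used, and the counting and merging steps were tested on simulated data.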

Additional observations from a re-analysis of the deposited data

How the results depend on the processing

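Of 55 alternative values, 32 were within 1.5 times the reported count. Among them were values that could not have differed: some values of 0, and the knockdown counts by treatment label or without Day 12- 4. The number of C/EBP genes with a site was 1 in Day 12- 4 with a 10 kb window. With lists cut to the shortest it was 3 at day 12, 3 in Day 12- 8 and 3 in Day 12- 12. With a score of at least 20 it was 1 at day 0, 1 in Day 12- 4, 0 in Day 12- 8 and 3 in Day 12- 12. By the nearest protein-coding gene it was 3 at day 4 and 1 in Day 12- 4. Sites called at day 12 and not at day 0 numbered 32 with a 10 kb window, 6 in cut lists and 23 with a score of at least 20. Those also called in a knockdown library numbered 11, 4 and 4 under the same settings and 8 without the library titled Day 12- 12. When merged at 500 bp they numbered 54, of 79 called at day 12 and not at day 0. Sites of the knockdown libraries that no restoration library called came to 75 of 191, against 115290 of 246675 over the whole series. They came to 15, 3 and 0 under the 10 kb, cut-list and score settings, 46 when merged at 500 bp and 6 without Day 12- 12. The cause of these shifts was not tested, beyond the fewer summits that the narrower settings admit. Grouping by treatment label left both knockdown counts at 32 and 75. Each C/EBP site of Day 12- 4 was also called in Day 12- 12 and in a restoration library. Taking Day 12- 4 out of the knockdown group therefore could not change either count. The Cebpa downstream region had a summit in 6 libraries, in 6 with the narrower region or cut lists and in 5 with a score of at least 20. No C/EBP site was called in all 7 libraries when merged at 500 bp, the only setting tried that could have added one. The 10 kb, cut-list and score settings only remove summits, so their value of 0 was fixed in advance. No paired analysis was possible because each group had 1 library. Depth was unknown, so missing calls could not be weighed by it.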

Other observations

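Genes were compared by the percentile of their highest score in each of the 7 libraries. The genes most like Cebpa were Cldn3, Abhd11 and Cacng2, with mean absolute differences of 2.72, 2.72 and 2.79 percentile points. Those most like Cebpb were Ubxn8, Mrpl55 and 2310033P09Rik, at 4.24, 4.35 and 4.35. Tmem60, Mlana and P3h2 were closest to Cebpd, at 4.94, 5.26 and 6.19, and Pfdn2, Klhdc9 and Lamtor2 to Cebpe, at 2.90, 2.90 and 4.53. Aebp2, Tenm2 and Cntnap2 were closest to Cebpg, at 2.63, 2.72 and 3.17. These were the closest of 21887 genes, leaving out genes with overlapping windows. Between members the smallest difference was 15.6, between Cebpd and Cebpg, followed by 16.5 for Cebpa and Cebpe and 16.7 for Cebpa and Cebpb. The largest was 41.1, between Cebpb and Cebpg.

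Day 12- 12 had 104 C/EBP summits with a median score of 6.42, of which 5 scored at least 20, against 88 with a median of 8.43 and 24 scoring at least 20 at day 12. The medians of the whole lists were 6.34 in Day 12- 12 and 8.43 at day 12. Around Cebpg and Pepd this library and day 12 held 32 and 17 summits, and the highest scores there were 14.6 and 24.8.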
